A study of Rattus norvegicus with 9 samples.

Results

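Rab proteins are small GTPases that give each membrane of the vesicle traffic its identity. Loaded with GTP by exchange factors they bind effectors that tether, move or fuse vesicles, GTPase-activating proteins switch them off, and a GDP dissociation inhibitor keeps the inactive form in the cytosol. In smooth muscle cells they carry receptors, integrins and matrix proteins to and from the surface, as in other cells. The genes described here are all those whose probe set carries exactly 1 gene symbol made of Rab and a number, with or without 1 letter after it, which gave 53 genes of 14324 with a symbol, on 59 of the 27342 probe sets of the array. Of these genes, 6 have 2 probe sets, and the one of higher mean signal was used. *Rab26* is not among them, as its probe set also names *Traf7*.

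Gene expression was measured in rat aortic smooth muscle cells (RASMC), bought as primary cells, on 9 Affymetrix Rat Gene 1.0 ST arrays. All cells were first kept quiescent for 24 hr in 0.2% serum, washed with K+-free DMEM and then incubated for 6 hr in K+-free DMEM (3 arrays), in DMEM with 3 mM ouabain (3 arrays) or in control DMEM (3 arrays). Ouabain binds the Na+,K+-ATPase and blocks it, whereas K+-free medium withholds the ion that the same pump carries inward, and the comparisons ask which transcripts follow when the pump stops. The cells are from a single supplier and no other line or donor is named, and the methods describe 3 independent experiments.

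The deposited values are log2 signals, so a difference of 1 is a 2-fold change of signal; signals of different probe sets are not on a common scale of RNA amount. The median of an array was 6.76 to 6.80, and single values ran to 14.55 at the highest and 4.22 at the lowest. Across all probe sets, replicate arrays correlated at 0.996 to 0.998 and arrays of different groups at 0.971 to 0.990. The smooth muscle genes *Tagln* (mean 13.52 in K+-free cells, 13.40 in ouabain, 13.60 in control), *Cnn1* (11.99, 12.00 and 12.27 in the same order) and *Myl9* (11.68, 11.57 and 11.54) were high on all arrays, while *Des* lay below the array median on all 9. The mean signal of the 7 smooth muscle markers measured was 9.87 to 9.91 in K+-free cells, 9.75 to 9.86 in ouabain and 10.20 to 10.25 in control cells. By the rule used for the Rab genes, 3 of the 7 were called lower in K+-free cells and 4 in ouabain, *Lmod1* by the most. *Lmod1* averaged 8.23 in K+-free cells, 8.10 in ouabain and 9.71 in control cells. *Myh11* averaged 8.30, 8.23 and 8.92 in the same order. The 6 leukocyte markers averaged 6.46 to 6.56 in K+-free cells, 6.66 to 6.68 in ouabain and 6.08 to 6.17 in control cells, where *Ptprc*, *Adgre1*, *Csf1r* and *Lyz2* were below the array median on every array and *Cd68*, *Cd14* and *Csf1r* rose in both treatments. The 5 fibroblast markers averaged 9.57 to 9.60 in K+-free cells, 9.29 in ouabain and 9.15 to 9.24 in control cells, with *Pdgfra* and *Lum* called higher in K+-free cells. The 2 endothelial markers measured averaged 5.81 to 5.86 in K+-free cells, 5.82 to 5.86 in ouabain and 5.62 to 5.66 in control cells, below the array median throughout, and 1 of them, *Cdh5*, rose in both. The part of these markers in the Rab results was not tested, and in bulk RNA fewer cells of a type cannot be told apart from less RNA per cell.

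A Rab gene was called higher or lower at a fold above 1.2 and an adjusted p under 0.05 from limma, fitted on all probe sets with Benjamini-Hochberg adjustment. In K+-free medium 13 of the 53 genes were called higher than in control cells (24.5%) and 14 lower (26.4%), against 16.1% and 17.9% of all probe sets. Ouabain gave 11 higher (20.8%) and 14 lower (26.4%), against 15.8% and 16.8% of all probe sets. Counted over the 14324 genes with a symbol, the background was 17.8% higher and 24% lower in K+-free cells, and 17.5% and 22.7% in ouabain. The counts alone therefore set the Rab genes only a few percentage points above all genes, and the falls in K+-free cells least. The median Rab change was 0.02 on the log2 scale in both treatments, where all probe sets had medians of 0.06 in K+-free cells and 0.07 in ouabain. Both treatments were set against the same 3 control arrays, so their calls are not independent of each other. In every one of these calls all treated arrays lay on 1 side of all controls. Among all 53 genes this held for 41 in K+-free cells (77.4%, against 57.1% of all probe sets) and 40 in ouabain (75.5%, against 54.2%). The corresponding share among the 14324 genes was not computed. As calls were more frequent among those genes than among all probe sets, this gap is not read as particular to Rab genes. How many rose and how many fell depended on how arrays were scaled to each other. With arrays centred on *B2m*, which moves the median of all probe sets to −0.10 in K+-free cells and −0.08 in ouabain, the counts became 9 higher and 23 lower in K+-free cells, and 8 higher and 19 lower in ouabain. Of all 27342 probe sets, 2375 were then called higher and 7059 lower in K+-free cells, in place of 4391 and 4890. In ouabain the counts were 2166 and 6223, in place of 4312 and 4583. The move toward lower calls was thus shared by the probe sets as a whole.

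**Figure D1:**
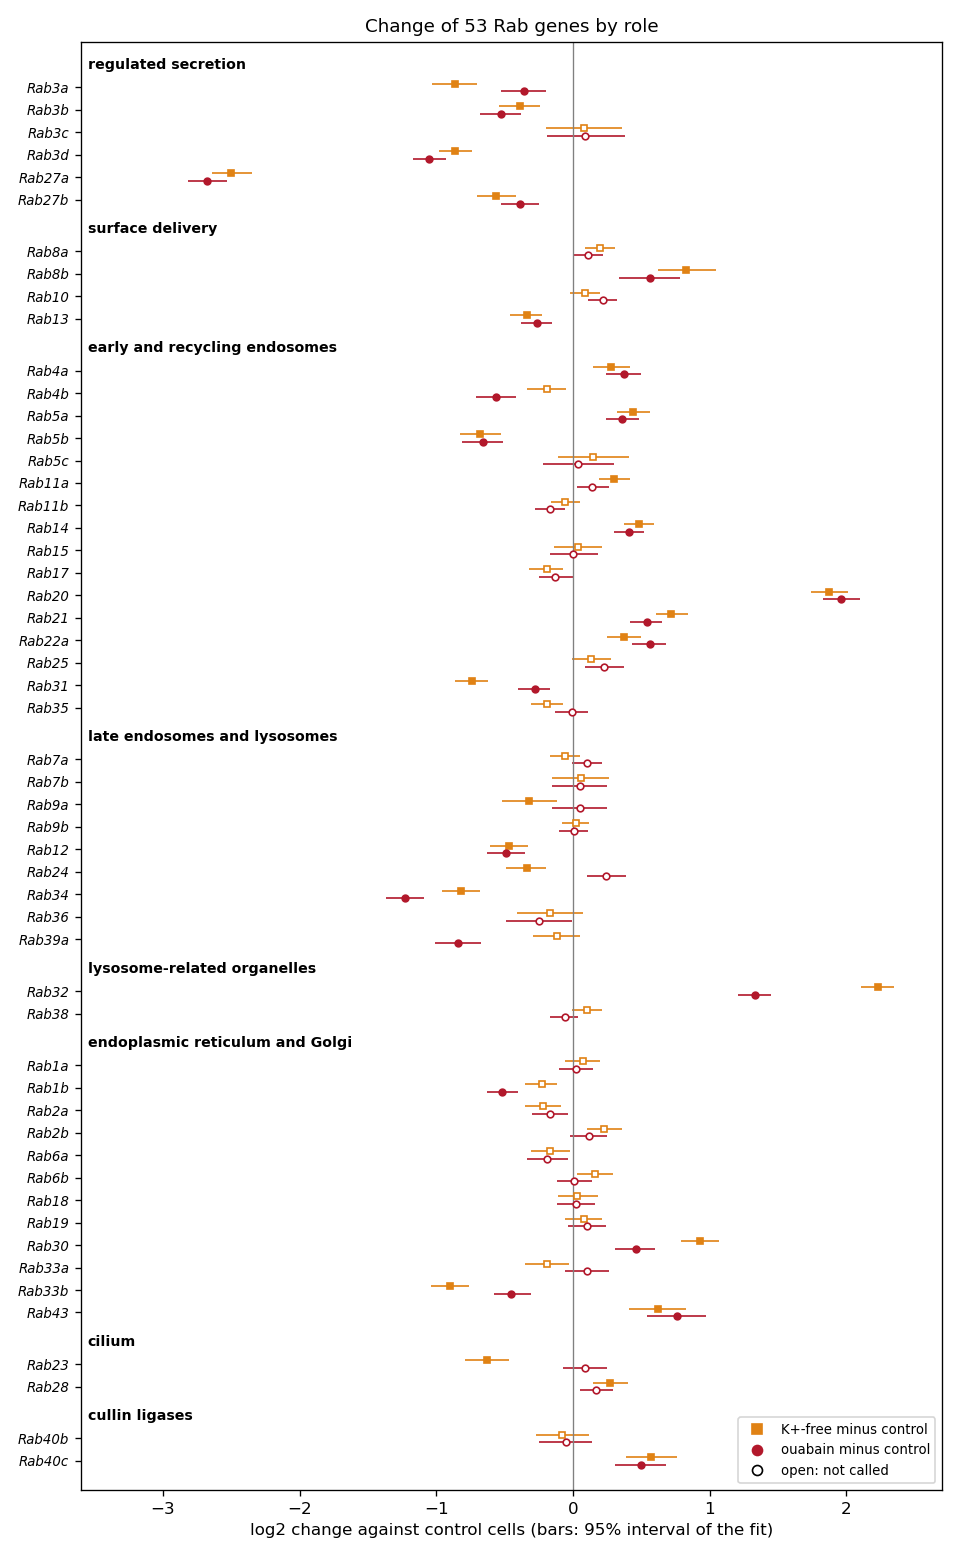
Log2 change of each of the 53 Rab genes in K+-free cells (squares) and in ouabain (circles) against control cells, ordered by role, with bars for the 95% interval of the fit and filled symbols for called genes. *Rab27a* lies farthest to the left (−2.50 and −2.68), and *Rab32* and *Rab20* farthest to the right.

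Changes of at least 2-fold in a treatment were found for 5 members: *Rab27a*, *Rab20* and *Rab32* in both, and *Rab34* and *Rab3d* in ouabain. That is 3 genes or 5.66% of the Rab genes in K+-free cells, against 8.62% of the 14324 genes, and 5 genes or 9.43% in ouabain, against 7.27%. Each share differs from that of all genes by few genes only, and the differences were not tested. No gene of the 53 was called up in one treatment and down in the other with all 9 arrays, though *Rab24* was so called without Ouabain 3.

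Of the 6 Rab genes of regulated secretion, 5 were lower in each treatment and none was higher, and their median change was −0.71 in K+-free cells and −0.46 in ouabain. Among the 14324 genes 24% were called lower in K+-free cells and 22.7% in ouabain. The difference was not tested, and 6 genes are few to set against these shares. *Rab27a*, which docks secretory granules, melanosomes and exosome-bearing endosomes at the plasma membrane, read 7.14, 7.14 and 6.92 on the K+-free arrays and 6.94, 6.89 and 6.83 on the ouabain arrays, against 9.53, 9.60 and 9.56 on the control arrays. The 6 treated arrays were close to the median signal of an array and far from all 3 controls. A signal above background was not shown at that level, so the size of the fall is uncertain. The log2 signal fell by 2.50 in K+-free cells (5.65-fold, SE 0.066, limma adjusted p = 5.05e-10) and by 2.68 in ouabain (6.40-fold, adjusted p = 1.17e-09). K+-free and ouabain arrays differed by 0.18 (95% interval 0.03 to 0.32, adjusted p = 0.0825). Its closest relative *Rab27b* fell by 0.56 in K+-free cells and by 0.39 in ouabain.

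*Rab3d*, of the Rab3 group that clamps and primes secretory vesicles for exocytosis, read 9.21, 9.12 and 9.19 on the K+-free arrays and 9.0, 9.02 and 8.94 on the ouabain arrays, against 10.09, 10.04 and 9.98 on the control arrays. None of the 3 groups overlapped. It fell by 0.86 in K+-free cells (adjusted p = 1.71e-07) and by 1.05 in ouabain (2.07-fold, adjusted p = 4.74e-08, SE 0.054 in both). *Rab3a* fell by 0.86 in K+-free cells and by 0.36 in ouabain, and *Rab3b* by 0.39 in K+-free cells and by 0.53 in ouabain. *Rab3c* lay below the array median on all 9 arrays and was not called, with changes of 0.08 (95% interval −0.20 to 0.36) in K+-free cells and 0.09 (−0.19 to 0.38) in ouabain. Repeated quantile normalization ended the calls of *Rab3b* in K+-free cells (−0.23) and of *Rab3a* (−0.15) and *Rab27b* (−0.25) in ouabain.

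*Rab20*, a GTPase of early endosomes and maturing phagosomes, was the Rab gene of largest rise in ouabain. It read 9.95, 9.92 and 10.02 on the K+-free arrays and 9.97, 10.17 and 10.03 on the ouabain arrays, against 8.11, 8.07 and 8.09 on the control arrays. The treatments overlapped each other and both lay well above the controls. The rise was 1.87 in K+-free cells (3.66-fold, SE 0.060, adjusted p = 1.61e-09) and 1.96 in ouabain (3.90-fold, adjusted p = 2.28e-09), and the treatments differed by −0.09 (95% interval −0.22 to 0.04).

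*Rab32*, which sorts cargo to lysosome-related organelles such as melanosomes and also sits on mitochondria, rose in both treatments and further in K+-free cells. It read 10.91, 10.97 and 11.04 on the K+-free arrays and 10.04, 10.12 and 10.07 on the ouabain arrays, against 8.74, 8.71 and 8.80 on the control arrays. The 3 groups formed 3 steps without overlap. The rise was 2.23 in K+-free cells (4.68-fold, SE 0.054, adjusted p = 2.77e-10) and 1.33 in ouabain (2.51-fold, adjusted p = 1.07e-08), and K+-free cells exceeded ouabain by 0.90 (adjusted p = 8.33e-07). Its partner in the same organelles, *Rab38*, was below the array median on all arrays and was not called, with changes of 0.10 in K+-free cells and −0.06 in ouabain.

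*Rab34*, which positions lysosomes and takes part in macropinocytosis and in the building of cilia, fell in both treatments and further in ouabain. It read 9.69, 9.53 and 9.50 on the K+-free arrays and 9.15, 9.25 and 9.10 on the ouabain arrays, against 10.39, 10.40 and 10.39 on the control arrays. Again no arrays of different groups overlapped. The fall was by 0.82 in K+-free cells (adjusted p = 9.57e-07) and by 1.23 in ouabain (2.34-fold, adjusted p = 5.51e-08, SE 0.064 in both), so that K+-free medium stood 0.41 above ouabain (adjusted p = 0.000753). For *Rab27a*, *Rab20*, *Rab32*, *Rab34* and *Rab3d* the call against control cells held under all alternatives tried at the 1.2-fold limit.

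**Figure D2:**
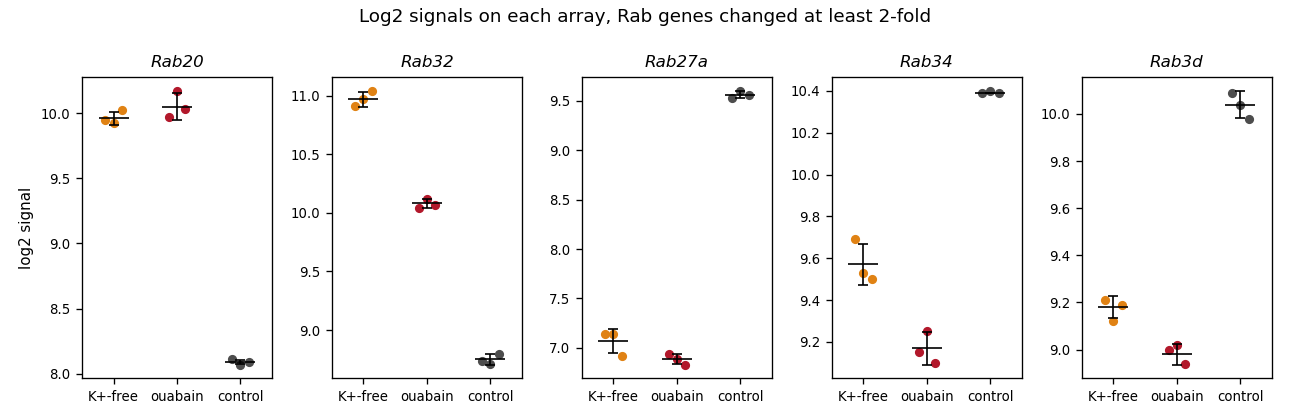
Log2 signal on each array (points) of the 5 Rab genes that changed at least 2-fold, in K+-free cells, ouabain and control cells, with the mean and the SD of 3 arrays (bars) on axes that differ between panels and do not start at 0. *Rab20* and *Rab32* lie above the controls and *Rab27a*, *Rab34* and *Rab3d* below, and the *Rab32* levels of the 3 groups form separate steps.

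The sequence before the start of 4 of these genes is shown as they had the largest changes, and each was searched for the core of the hypoxia response element, ACGTG or GCGTG, an element the study also looked for, and for TGACTCA, the site of AP-1 factors. The windows are the 250 bases upstream of the start in RefSeq, build GRCr8, written along the strand of the gene, and capitals mark each hypoxia core or AP-1 match on either strand. They lie at chr16:84721177-84721426 on the plus strand for *Rab20*, chr8:82663123-82663372 on the plus strand for *Rab27a*, chr1:6781259-6781508 on the minus strand for *Rab32* and chr10:63581292-63581541 on the plus strand for *Rab34*.
Rab20: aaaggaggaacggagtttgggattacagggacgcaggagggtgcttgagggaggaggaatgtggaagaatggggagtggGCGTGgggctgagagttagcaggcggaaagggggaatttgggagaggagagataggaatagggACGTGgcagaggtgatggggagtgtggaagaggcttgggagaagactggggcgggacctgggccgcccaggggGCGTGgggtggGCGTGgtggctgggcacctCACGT
Rab27a: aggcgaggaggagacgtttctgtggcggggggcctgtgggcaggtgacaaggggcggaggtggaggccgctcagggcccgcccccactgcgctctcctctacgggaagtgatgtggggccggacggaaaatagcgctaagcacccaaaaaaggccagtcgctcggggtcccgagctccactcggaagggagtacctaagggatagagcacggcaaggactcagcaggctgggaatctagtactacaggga
Rab32: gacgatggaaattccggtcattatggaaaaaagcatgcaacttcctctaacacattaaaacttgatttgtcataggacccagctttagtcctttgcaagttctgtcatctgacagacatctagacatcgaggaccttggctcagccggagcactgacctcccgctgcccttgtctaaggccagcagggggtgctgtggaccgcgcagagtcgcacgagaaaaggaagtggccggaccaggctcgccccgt
Rab34: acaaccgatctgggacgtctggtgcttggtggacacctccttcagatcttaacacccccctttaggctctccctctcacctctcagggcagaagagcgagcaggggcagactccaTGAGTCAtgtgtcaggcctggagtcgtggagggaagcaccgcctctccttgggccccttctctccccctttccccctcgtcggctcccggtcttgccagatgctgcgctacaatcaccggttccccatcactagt

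The *Rab20* window holds 5 hypoxia cores, whose first bases lie 171, 108, 35, 24 and 5 bases before the start. The windows of *Rab27a* and *Rab32* hold neither motif, and that of *Rab34* holds 1 AP-1 match, 135 bases before the start, and no core. That of *Rab3d*, not shown, holds 2 cores, 176 and 130 bases before the start. Over the 44 Rab genes with an entry, 23 windows (52.3%) held at least 1 hypoxia core, against 37.9% of 27457 promoters of the same length. The Rab windows were also richer in G and C, with a median of 63.0% against 52.0%. A core was present in 5 of the 12 genes called higher in a treatment, in 8 of the 14 called lower and in 10 of the 18 called in neither. AP-1 matches were found in 4 windows (9.09%, against 3.98% of all), those of *Rab4b*, *Rab9a*, *Rab27b* and *Rab34*. They stood in 4 of the 14 genes called lower, 0 of the 12 called higher and 0 of the 18 called in neither. This split was not tested and rests on few genes. *Rab4b* was called lower in ouabain only. The K+-free call of *Rab9a* was lost without K_Free 2 (−0.20) and in ordinary analysis of variance. The palindrome CACGTG, which contains the hypoxia core, stood in 3 windows (6.82%, against 5.79%), of *Rab5a*, *Rab21* and *Rab31*, and TGACGTCA, the cyclic AMP response element, in 1 (2.27%, against 1.70%), that of *Rab25*. These letters describe the windows and were not tested as binding sites.

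Among the 16 Rab genes of early and recycling endosomes, 7 were called higher and 2 lower in K+-free cells, and 6 higher and 3 lower in ouabain, with medians of 0.14 and 0.09. Of the 14324 genes, 17.8% were called higher and 24% lower in K+-free cells, and 17.5% and 22.7% in ouabain. With only 16 members in this role, the difference from these shares was not tested. Besides *Rab20*, the members that rose included *Rab21*, which moves integrins inward (0.72 in K+-free cells and 0.54 in ouabain), *Rab22a*, of tubular recycling (0.37 and 0.56), and *Rab14*, which links the trans-Golgi network to endosomes (0.48 and 0.41). *Rab14* was also one of the 3 Rab genes of highest mean signal, at 13.02 ± 0.049 in K+-free cells and 12.95 ± 0.045 in ouabain, against 12.54 ± 0.019 in control cells (SD, n = 3 each). The other 2 of highest signal, *Rab10* and *Rab7a*, were called in neither treatment. *Rab11a*, of the slow recycling compartment, rose by 0.30 in K+-free cells and had a change of 0.14 in ouabain, which did not reach the 1.2-fold limit. With arrays centred on *B2m*, the calls of *Rab22a* (0.21) and *Rab11a* (0.14) in K+-free cells and of *Rab14* in ouabain (0.25) were lost.

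Genes of the same number parted within this role. *Rab5a*, which drives the fusion of early endosomes, rose by 0.44 in K+-free cells and by 0.36 in ouabain, while *Rab5b* fell by 0.68 in K+-free cells and by 0.66 in ouabain and *Rab5c* was not called (0.15 and 0.04). *Rab4a*, of fast recycling, rose by 0.28 in K+-free cells and by 0.37 in ouabain, whereas *Rab4b* had a change of −0.19 in K+-free cells, under the fold limit, and fell by 0.56 in ouabain. *Rab31*, which is of the same branch as *Rab22a*, fell by 0.74 in K+-free cells and by 0.28 in ouabain. *Rab15*, *Rab17*, *Rab25*, *Rab35* and *Rab11b* were called in no comparison of the main fit. Of these, *Rab15*, *Rab17* and *Rab25* lay below the array median on all 9 arrays. With arrays centred on *B2m*, *Rab17*, *Rab35* and *Rab11b* were called lower in at least 1 treatment. The same centring ended the calls of *Rab4a* in K+-free cells (0.13) and in ouabain (0.22) and of *Rab5a* in ouabain (0.21).

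A difference between 2 genes within an array does not change when a whole array is shifted, as in the centring on *B2m*, though quantile normalization can move it, and the genes of the same number were set against each other in this way. Over the 20 pairs, all treated arrays lay on 1 side of the controls for 18 pairs in K+-free cells and for 14 in ouabain. Of single probe sets, 57.1% in K+-free cells and 54.2% in ouabain were already apart, the share among other pairs of genes was not computed, and the pairs reuse genes, so these counts say nothing particular about Rab genes. The difference of log2 signals of *Rab27a* and *Rab27b* was 0.18 ± 0.16 in K+-free cells and −0.17 ± 0.092 in ouabain, against 2.12 ± 0.056 in control cells (SD, n = 3). Both genes read close to the array median in treated cells, so the size of this shift is uncertain. The corresponding difference of *Rab5a* and *Rab5b* was 2.78 ± 0.091 in K+-free cells and 2.67 ± 0.13 in ouabain, against 1.65 ± 0.024 in control cells. For *Rab4a* and *Rab4b* it was 1.08 ± 0.059 in K+-free cells and 1.54 ± 0.16 in ouabain, against 0.60 ± 0.069 in control cells. In these pairs no treated array reached the controls, though which gene of a pair moved cannot be read from the difference. Each of these had p = 0.1 in the exact two-sided permutation test of 3 against 3 arrays, the smallest such a test allows (0.125 after adjustment over 40 tests).

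**Figure D3:**
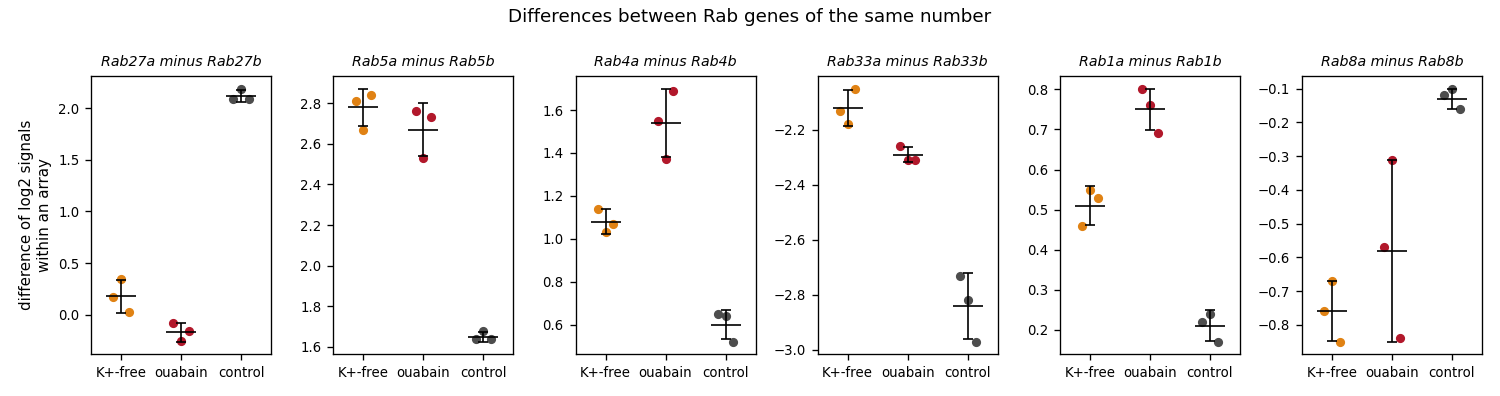
Difference between the log2 signals of 2 Rab genes of the same number on each array (points), in K+-free cells, ouabain and control cells, with the mean and the SD of 3 arrays (bars), for 6 of the 20 pairs (axes differ between panels). *Rab27a* minus *Rab27b* is 2.12 in control cells and near 0 in both treatments, and in all 6 pairs the treated arrays lie apart from the controls.

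In delivery to the surface, *Rab8b* rose by 0.83 in K+-free cells and by 0.56 in ouabain, while *Rab8a*, which like it carries Golgi and recycling vesicles to the plasma membrane, was not called (0.20 and 0.11). *Rab13*, of the traffic to cell junctions, fell by 0.34 in K+-free cells and by 0.26 in ouabain. The ouabain call of *Rab13* was at the fold limit, and was lost on leaving out Control 2 (−0.25) or Ouabain 1 (−0.22). *Rab10*, which brings glucose transporters to the surface of fat cells, had changes of 0.09 (95% interval −0.02 to 0.20) in K+-free cells and 0.22 (0.11 to 0.32) in ouabain.

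Of the 9 genes of late endosomes, lysosomes and autophagy, 4 fell in K+-free cells and 3 in ouabain, and none rose. The falls were 44.4% and 33.3% of the 9, against 24% and 22.7% of the 14324 genes. Of all genes, 17.8% rose in K+-free cells and 17.5% in ouabain. With so few members the difference was not tested. *Rab12*, which directs transferrin receptors to degradation, fell by 0.47 in K+-free cells and by 0.49 in ouabain. *Rab7a*, the central GTPase of late endosomes and lysosomes, averaged 13.13 ± 0.041 in K+-free cells and 13.28 ± 0.050 in ouabain, against 13.18 ± 0.0045 in control cells. Its changes of −0.06 (95% interval −0.17 to 0.05) and 0.10 (−0.01 to 0.21) stayed inside 1.2-fold. *Rab7b*, *Rab9b* and *Rab36* were called in no comparison of the main fit, and on some arrays they lay below the median.

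Traffic between the endoplasmic reticulum and the Golgi held 12 genes, of which 2 rose and 1 fell in K+-free cells and 2 rose and 2 fell in ouabain. That is 16.7% higher and 8.33% lower in K+-free cells, against 17.8% and 24% of the 14324 genes. In ouabain it is 16.7% each way, against 17.5% higher and 22.7% lower. *Rab30*, of Golgi membranes, rose by 0.93 in K+-free cells and by 0.46 in ouabain. *Rab43*, which acts in transport through the Golgi, rose by 0.62 in K+-free cells and by 0.76 in ouabain. *Rab33b*, a Golgi GTPase that also binds the autophagy protein Atg16l1, fell by 0.90 in K+-free cells and by 0.45 in ouabain. *Rab1b*, of the step out of the endoplasmic reticulum, had a change of −0.23 in K+-free cells, under the fold limit, and fell by 0.52 in ouabain, and its second probe set gave −0.19 and −0.52. *Rab1a*, which acts at the same step, had changes of 0.07 in K+-free cells and 0.02 in ouabain. *Rab2a*, *Rab2b*, *Rab6a*, *Rab6b*, *Rab18* and *Rab19* were called in no comparison of the main fit. For the 6 genes with 2 probe sets, both gave the same calls in all 3 comparisons.

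Of the remaining roles, *Rab40c*, a Rab with a SOCS box that recruits a cullin ubiquitin ligase, rose by 0.57 in K+-free cells and by 0.50 in ouabain, while *Rab40b* was not called and lay below the array median on all arrays. In the pair of ciliary genes, *Rab28* rose by 0.27 in K+-free cells, and the call was lost without Control 1 (0.26) or K_Free 3 (0.24). Altogether 22 of the 53 genes were called in none of the 3 comparisons of the main fit. For 8 of them, *Rab1a*, *Rab7a*, *Rab7b*, *Rab9b*, *Rab15*, *Rab18*, *Rab19* and *Rab38*, the 95% intervals of both changes against control cells lay within 1.2-fold in either direction. Several others of the 22 gained a call under another scaling or without 1 array.

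K+-free medium and ouabain were then compared with each other. Relative to ouabain, K+-free medium gave 6 of the 53 genes called higher (11.3%, against 8.45% of all probe sets) and 7 called lower (13.2%, against 7.97%), and the arrays did not overlap in any of the 13. Among the 14324 genes the shares were 10.9% and 10.7%. No Rab gene differed by 2-fold between the treatments, which 1.34% of all genes did.

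*Rab23*, a negative regulator of Hedgehog signaling linked to the cilium, had the largest difference downward among the 53 genes. It averaged 11.43 ± 0.12 in K+-free cells and 12.15 ± 0.094 in ouabain, against 12.06 ± 0.032 in control cells (SD, n = 3 each). It was thus 0.72 lower in K+-free than in ouabain-treated cells (SE 0.071, adjusted p = 3.03e-05), and only K+-free medium stood apart from the controls (−0.63, adjusted p = 2.10e-05, against 0.09 in ouabain). *Rab24*, which is tied to autophagy, averaged 8.63 ± 0.14 in K+-free cells and 9.22 ± 0.041 in ouabain, against 8.97 ± 0.011 in control cells. The treatments lay on either side of the control arrays without overlap: the change was −0.34 in K+-free cells, which was called, and 0.24 in ouabain (adjusted p = 0.0120), which stayed under the fold limit. The ouabain change was called higher on leaving out Ouabain 3 (0.27, limma adjusted p = 0.0184), where the K+-free call was kept (−0.34), and after repeated quantile normalization (0.41, limma adjusted p = 0.000113), where the K+-free call was lost (−0.17). The difference of the treatments was −0.59 (SE 0.067, adjusted p = 8.16e-05).

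*Rab39a*, of late endosomes and phagosomes, showed the reverse order. It averaged 8.22 ± 0.056 in K+-free cells and 7.5 ± 0.15 in ouabain, against 8.34 ± 0.088 in control cells. The difference of 0.72 between K+-free medium and ouabain (SE 0.078, adjusted p = 5.88e-05) came with a called fall of 0.84 in ouabain and a change of −0.12 in K+-free cells (95% interval −0.29 to 0.05). *Rab4b* (0.37 higher in K+-free than in ouabain-treated cells) and *Rab1b* (0.28 higher) had the same order of groups, with the control arrays highest. The *Rab1b* difference fell to 0.26 and lost its call without Ouabain 1 or Ouabain 3. That of *Rab4b* lost its call in the methods' t-test (Benjamini-Hochberg adjusted p = 0.0603).

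In 4 further genes both treatments moved the same way and K+-free medium went further. *Rab30* was 0.47 higher in K+-free than in ouabain-treated cells, while *Rab3a* was lower by 0.50, *Rab31* by 0.46 and *Rab33b* by 0.45, each in addition to a called change of the same sign in ouabain. *Rab9a*, which returns receptors from late endosomes to the Golgi, was 0.37 lower in K+-free than in ouabain-treated cells and 0.32 lower than in control cells. The K_Free 2 array, at 11.98 against 12.31 and 12.34 on the other 2, was the lowest. Without it the values were −0.26 and −0.20 and were not called. Both calls were also lost in ordinary analysis of variance (adjusted p = 0.0615 and 0.0556) and in the methods' t-test (adjusted p = 0.181 and 0.104). *Rab33a* was 0.28 lower in K+-free than in ouabain-treated cells and called against control in neither treatment. The call of its difference was lost without Ouabain 2 (−0.23). It was also lost in ordinary analysis of variance (adjusted p = 0.0513) and in the methods' t-test (adjusted p = 0.055).

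**Figure D4:**
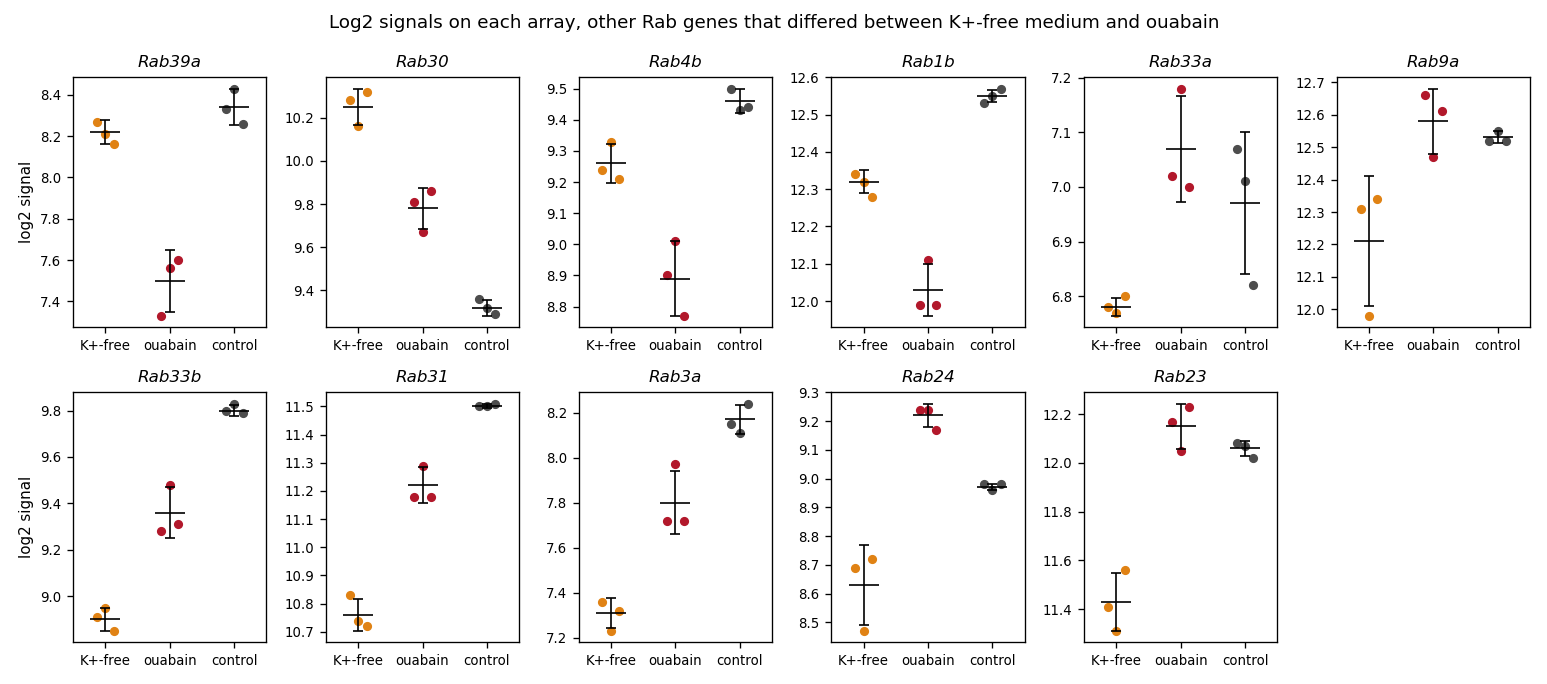
Log2 signal on each array (points) of the other 11 Rab genes that were called different between K+-free medium and ouabain, in K+-free cells, ouabain and control cells, with the mean and the SD of 3 arrays (bars) on axes that differ between panels and do not start at 0. *Rab23* is low in K+-free cells alone and *Rab39a* in ouabain alone, and *Rab24* has the controls in between.

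The proteins that act on Rab GTPases were described from lists of known members, whose counts of calls stand against 17.8% higher and 24% lower among the 14324 genes in K+-free cells, and 17.5% and 22.7% in ouabain. Of 33 listed exchange factors 17 were measured, of which 3 were higher and 10 lower in K+-free cells, and 1 higher and 10 lower in ouabain, with medians of −0.46 and −0.47. The shares were 17.6% higher and 58.8% lower in K+-free cells, and 5.88% and 58.8% in ouabain. Their differences from all genes were not tested, and only part of the list was measured. *Rabif*, which stabilizes Rab proteins of the secretory route in their empty form, fell by 1.75 in K+-free cells (adjusted p = 5.77e-10) and by 0.77 in ouabain. *Rab3ip*, the exchange factor of Rab8, fell by 1.23 and by 0.48 in the same order, and *Mon1b*, of the complex that activates Rab7, by 1.16 and by 0.88. *Hps1*, a subunit of the exchange factor of Rab32 and Rab38, fell by 0.84 in K+-free cells and by 0.96 in ouabain, to signals near the array median. Its partner *Hps4*, named after its values were seen, fell by 0.77 and by 0.84. As 10 of the 17 exchange factors were lower in each treatment, these falls are not particular to both subunits.

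GTPase-activating proteins were measured for 24 of 37 listed, and 5 rose and 13 fell in K+-free cells while 3 rose and 12 fell in ouabain (medians −0.41 and −0.25). In K+-free cells these were 20.8% and 54.2% of the 24, and in ouabain the share that fell also lay above that of all genes, while the share that rose lay below it. *Tbc1d7*, which is also a subunit of the TSC complex, fell by 1.51 in K+-free cells and by 1.64 in ouabain, and *Tbc1d9b* by 0.94 and by 1.42. *Sgsm2*, which acts on Rab32 and Rab33b, fell by 1.2 in K+-free cells and by 1.07 in ouabain. *Tbc1d17* fell by 1.10 in K+-free cells and by 0.29 in ouabain, a difference of −0.81 (adjusted p = 8.86e-07).

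Of 6 genes for the prenylation and recycling of Rab proteins, 1 rose and 3 fell in K+-free cells, and 2 rose and 2 fell in ouabain, too few genes to set against those shares. The subunits of the enzyme that attaches the lipid anchor differed: *Rabggta* fell by 1.35 in K+-free cells and by 1.29 in ouabain, whereas *Rabggtb* fell by 0.39 in K+-free cells and rose by 0.36 in ouabain, the treatments differing by −0.74 (adjusted p = 1.88e-06). The 2 escort proteins that present Rab proteins to this enzyme also parted, *Chm* rising by 0.62 in K+-free cells and by 0.55 in ouabain, and *Chml* falling by 1.47 and by 1.04.

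Of the 49 listed effectors 39 were measured, with 6 higher and 11 lower in K+-free cells and 8 higher and 10 lower in ouabain (medians −0.02 and 0.01). At 15.4% higher and 28.2% lower in K+-free cells, and 20.5% and 25.6% in ouabain, these lay near the shares of all genes. *Sytl2*, an effector of Rab27 that tethers vesicles to the plasma membrane, rose by 1.53 in K+-free cells (SE 0.069, adjusted p = 1.61e-08) and had a change of 0.10 in ouabain, a difference of 1.43 (adjusted p = 1.47e-07). Its probe set lay below the array median on all 6 ouabain and control arrays (5.83 to 6.06), where a signal above background was not shown, so the size of the rise is uncertain. The monooxygenase *Mical1*, which takes actin filaments apart, fell by 1.57 in K+-free cells and by 1.44 in ouabain. *Ehbp1l1*, which binds Rab8, fell by 1.55 and by 0.85, and *Lrrk2*, the kinase of several Rab proteins, by 1.32 and by 1.17.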

How the data were processed

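RNA of 9 cultures, 3 for each medium, was read on Affymetrix Rat Gene 1.0 ST arrays. The authors deposited log2 signals of 27342 probe sets, which the labels credit to RMA and Partek. The methods also describe other software, and tool versions for these values were not given in the sources used here. RMA scales all arrays together, so a change is relative to the other probe sets. The files hold signals without depth, and 3 arrays per group limit the precision. Groups came from the labels, and that cultures were separate rests on the methods; p-values otherwise measure only the spread between these arrays.

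The platform annotation gives 1 symbol to 15097 probe sets and several to 323, and all 53 Rab symbols are the current ones of RefSeq. With limma 3.58.1 in R 4.3.3, 1 mean per group was fitted over the 9 arrays. Variances were moderated by empirical Bayes (prior SD 0.0815, 4.59 prior degrees of freedom), and p-values were adjusted by Benjamini-Hochberg over all probe sets. A call needed a fold above 1.2 and an adjusted p under 0.05. The fit was also run on simulated data with independent noise and few planted changes. As far more probe sets changed in the real arrays, this does not show how well the fit performs on them. Pairs of genes were compared with exact permutation tests in scipy 1.17.1.

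The members, the lists of roles, regulators and markers, and the tests were chosen with earlier results of these data known, and roles were assigned from general knowledge. Values per array were given for members called with a log2 change of 1 or more against control, means or changes for those that differed between treatments and for the 3 of highest signal, and the rest by change or name. Of each list of regulators, up to 4 called genes with the largest changes were named.

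Same-numbered arrays were checked for shared deviations and were not treated as pairs. Alternatives were other normalizations and centrings, a filter on dim probe sets, probe sets with 1 symbol, a replicate block, the 6 arrays of a comparison, other moderation, ordinary analysis of variance, the methods' t-test, other fold limits, averaging the probe sets of a gene, and omission of each array. Figures were drawn with matplotlib 3.10.9 in Python 3.11.15.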

Additional observations from a re-analysis of the deposited data

How the results depend on the processing

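Of the counts of Rab genes under alternatives other than leaving out an array, 83 of 90 stayed within 1.5 times the reported count. The exceptions were centring on *B2m* and a fold limit of 1.5. Centring on *B2m* gave 23 genes lower in K+-free cells in place of 14, while the probe sets called lower went from 4890 to 7059. The fold limit of 1.5 left 6 higher and 8 lower in K+-free cells, and 3 higher and 5 lower in ouabain. In K+-free cells against ouabain it left 2 higher and 2 lower. Leaving out 1 array gave 12 to 14 higher and 13 to 14 lower in K+-free cells, 11 to 12 higher and 13 to 14 lower in ouabain, and 5 to 6 higher and 6 to 7 lower between the treatments. Repeated quantile normalization ended the ouabain calls of *Rab3a* (−0.15), *Rab13* (−0.08) and *Rab27b* (−0.25) and the K+-free calls of *Rab3b* (−0.23), *Rab11a* (0.23), *Rab13* (−0.18), *Rab24* (−0.17) and *Rab28* (0.26), while *Rab24* was now called higher in ouabain (0.41, adjusted p = 0.000113), and the cause was not tested. Centring on *B2m* ended those of *Rab4a*, *Rab5a* and *Rab14* in ouabain (0.22, 0.21 and 0.25) and of *Rab4a*, *Rab11a*, *Rab22a* and *Rab28* in K+-free cells (0.13, 0.14, 0.21 and 0.11). It newly called *Rab2a*, *Rab6a*, *Rab11b*, *Rab17* and *Rab36* lower in ouabain (−0.28 to −0.40). In K+-free cells it newly called *Rab1b*, *Rab2a*, *Rab4b*, *Rab6a*, *Rab17*, *Rab33a*, *Rab35*, *Rab36* and *Rab39a* lower (−0.28 to −0.39). Repeated quantile normalization newly called *Rab1b* (−0.27) and *Rab35* (−0.27) lower and *Rab6b* (0.29) higher in K+-free cells. The methods' t-test with Benjamini-Hochberg adjustment gave 13 higher and 13 lower in K+-free cells, 11 and 14 in ouabain, and 5 and 5 between the treatments; unadjusted, it gave 13 and 13, 11 and 14, and 6 and 7. Centring on reference genes ended the K+-free calls of *Rab4a* (0.24), *Rab11a* (0.25) and *Rab28* (0.23) and the difference of *Rab33a* between the treatments (−0.25). It newly called *Rab6a* (−0.27) lower in ouabain, and *Rab1b* (−0.28) and *Rab2a* (−0.27) lower in K+-free cells. *Rab4a* lost its K+-free call without Control 3 (0.24). Leaving out 1 array also added ouabain calls of *Rab3c* (0.27, without Control 2), *Rab25* (0.27, without Control 3 or Ouabain 2) and *Rab36* (−0.33, without Ouabain 1). *Rab2b* gained a K+-free call without K_Free 2 (0.28). A further count took only the Rab genes called with a log2 change of 1 or more against control, or called between the treatments. Of their 1008 values under alternatives at the 1.2-fold limit, 984 kept their side of the threshold, 16 lost and 8 gained a call, and none changed sign while called. The other Rab genes were left out of this count, and several of them lost or gained calls as listed above. *Rab3c*, *Rab15*, *Rab17*, *Rab19*, *Rab25*, *Rab38* and *Rab40b* lay below the array median on all 9 arrays, and their signal over background was not measured here.

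With a replicate block, the counts were 13 higher and 14 lower in K+-free cells, 11 and 14 in ouabain, and 7 and 7 between the treatments, where *Rab8b* was added (0.27, limma adjusted p = 0.0255). The block ended no call. Of 9 same-numbered pairs of arrays 4 had deviations correlated above 0.1, and 7 of 9 arrays lay closest to an array of their own number, a hint from the data that some numbers mark a shared experiment. The methods state that control and treated cells were run in parallel, but the labels do not tie the numbers to the experiments, so whether they pair the samples was not settled.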
